A study of Mus musculus with 50 samples.

Results

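The genes described here carry glucose into the cell and break it down: the sugar transporters, the enzymes of glycolysis and their regulators, the lactate and pyruvate dehydrogenase steps, the monocarboxylate transporters, the hypoxia factor Hif1a and the enzymes of the pentose phosphate pathway. They were chosen by symbol from a list of 36, which matched 37 of the 53700 rows of the count tables because Aldoa has a pair of rows. A total of 35 member rows were among the 16696 genes that passed the expression filter of 1 CPM (read counts scaled to library size) or above in over 2 of the 50 mice. Pdk4 and the second Aldoa row (ENSMUSG00000114515, named Gm57854 in GENCODE M39) did not pass it.

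The libraries came from microglia of both hippocampi of single C57BL/6J male mice, sorted as CD11b+ CD45int cells. Early-life stress (ELS) was limited bedding and nesting material for dam and pups from P2 to P9, while control (CTR) nests had standard material. At P9 there were 12 P9-CTR and 13 P9-ELS mice. At P200 mice were killed 3 hours after an intraperitoneal injection of saline (PBS) or of 1 mg/kg E. coli lipopolysaccharide (LPS), with 7 CTR-PBS, 6 ELS-PBS, 7 CTR-LPS and 5 ELS-LPS mice. Myelin was removed with Percoll from the adult brains but not from the P9 brains. The ages were also separate cohorts, and only the adults were injected. Age cannot be told apart from the Percoll step, the cohort or the injection. Mice are named below by group and replicate, numbered in the order of their records, and in every group but ELS-LPS several mice carry the same nest number.

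Glycolysis turns glucose into pyruvate with a small gain of ATP, and lactate dehydrogenase can return the pyruvate to lactate so that the pathway keeps running without mitochondria. Its pace is set mainly at glucose entry, at hexokinase and at phosphofructokinase. The PFKFB enzymes make an activator of phosphofructokinase, a fructose bisphosphate other than the one that phosphofructokinase itself produces. Microglia express the fructose carrier GLUT5 (Slc2a5) as a marker, and macrophages exposed to bacterial products are known for a shift towards glycolysis. The pentose phosphate pathway branches off at glucose phosphate and yields NADPH and ribose.

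Total counts per mouse ran from 5152838 to 42231258, and the number of genes above 0 from 12482 to 21100. Under 16000 genes were above 0 in 3 mice, P9-ELS replicates 5 and 6 and CTR-PBS replicate 1. All 12 microglial markers were present in every group, with a summed level of 41066 to 94586 CPM per mouse. A gene was called when the adjusted p of edgeR's quasi-likelihood test, over all 16696 genes, was under 0.05, and a differentially expressed gene (DEG) also had an absolute log2 fold change above 1. Since these are bulk samples, fewer cells of a type and less RNA per cell cannot be told apart.

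In CTR-PBS adults the members differed widely in level. Per kilobase of the canonical transcript, the highest was Slc2a5 at 637 ± 23.0 CPM (SD, n = 7), ahead of Ldhb, the heart-type lactate dehydrogenase subunit, at 465 ± 52.6 CPM per kb. Aldoa followed at 259 ± 22.4 and Eno1 at 237 ± 23.7 CPM per kb, a neighbouring pair whose ranges of mean ± SD overlap, as do those of Gapdh (130.2 ± 9.1), Taldo1 (129 ± 6.8) and Ldha (126 ± 14.0). The ubiquitous glucose transporter Slc2a1 (GLUT1) stood at 27.3 ± 3.1 and the high-affinity transporter Slc2a3 (GLUT3) at 2.4 ± 0.8 CPM per kb. Among hexokinases, the transcript of Hk3 (32.3 ± 7.8 CPM per kb) and that of Hk2 (23.1 ± 3.7) were above that of Hk1 (4.6 ± 2.1). At the phosphofructokinase step the liver-type gene Pfkl (39.6 ± 2.9 CPM per kb) was far above Pfkm (1.2 ± 0.7) and Pfkp (0.5 ± 0.3). Aldoc, the brain aldolase that marks astrocytes, stood at 1.2 ± 0.8 CPM per kb.

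After LPS, 4 of the 35 members rose in CTR mice, all of them DEGs, and 5 rose in ELS mice, 4 of them DEGs. The shared 4 were Slc2a1, Slc2a3, the PFKFB isoform Pfkfb3, whose kinase activity dominates, and Ldha, the muscle-type lactate dehydrogenase subunit. None of the 9 enzymes from hexokinase to aldolase, none of the 6 enzymes from triose phosphate isomerase (Tpi1) to pyruvate kinase (Pkm) and neither monocarboxylate transporter was called in either condition. The 4 calls are 11.4% of members in CTR, where 14.9% of all tested genes were called, and the 5 calls are 14.3% in ELS, where 12.3% were. Calls in the upward direction took up 8.73% of all genes in CTR and 7.4% in ELS, and DEGs 9.62% and 7.86%. The LPS-injected mice lay wholly above the PBS-injected mice for 4 members in each condition, beside 4.92% and 5.65% of all genes, and wholly below for 0 and 1 members, beside 2.56% and 4.35%. The median member changed by 0.03 on the log2 scale in CTR and 0.09 in ELS, beside 0.00 and -0.04 over all genes.

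Slc2a1 (ENSMUSG00000028645, chr4:118965908-118996365, plus strand, GRCm39) was at 102 to 142 CPM in the 7 CTR-PBS mice, with a median of 121, and at 305 to 801 CPM in the 7 CTR-LPS mice, with a median of 540.3. In ELS-PBS it ran from 97.6 to 131 CPM and in ELS-LPS it was 832, 396, 207, 735 and 960.2 CPM in replicates 1 to 5. Every LPS-injected mouse was above every PBS-injected mouse in both conditions. LPS thus raised Slc2a1 4.73-fold in CTR (log2 fold change 2.24 ± 0.31 SE, adjusted p = 1.49e-07) and 5.45-fold in ELS (2.45 ± 0.34 SE, adjusted p = 3.13e-07).

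Slc2a3 (ENSMUSG00000003153, chr6:122704768-122778599, minus strand) was far less abundant. It ran from 5.90 to 14.5 CPM in CTR-PBS (median 9.83) and from 19.9 to 46.2 CPM in CTR-LPS (median 34.7), without overlap. In ELS-PBS it ran from 6.75 to 28.0 CPM (median 15.0). ELS-LPS replicates 1 to 5 had 49.1, 38.2, 21.6, 37.3 and 39.9 CPM, so that replicate 3 lay within the ELS-PBS range. On the log2 scale Slc2a3 rose by 1.93 ± 0.31 in CTR (adjusted p = 3.94e-06), and it rose by 1.24 ± 0.34 in ELS (adjusted p = 0.00887). The microglial fructose carrier Slc2a5 stayed within 1616 to 2085 CPM in CTR-LPS and 1851 to 2858 CPM in ELS-LPS, and its log2 fold changes of -0.24 ± 0.19 and -0.05 ± 0.21 were not called.

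Pfkfb3 (ENSMUSG00000026773, chr2:11476244-11558888, minus strand) had the largest LPS fold change of the members in both conditions. It ran from 66.8 to 205 CPM in CTR-PBS (median 152) and from 516 to 1425 CPM in CTR-LPS (median 598). The ELS-PBS mice had 124 to 205 CPM (median 147), and ELS-LPS replicates 1 to 5 had 1114, 509, 259.9, 1056 and 1508 CPM. No LPS-injected mouse overlapped with the PBS-injected mice of its condition. It was 5.14-fold higher after LPS in CTR (log2 2.36 ± 0.29, adjusted p = 6.32e-09) and 5.81-fold higher after LPS in ELS (log2 2.54 ± 0.32, adjusted p = 2.11e-08). The isoform Pfkfb4 moved the other way by value, from a median of 92.3 to 61.6 CPM in CTR and from 91.2 to 60.2 CPM in ELS, but was not called (log2 -0.61 ± 0.30, adjusted p = 0.189, and -0.61 ± 0.35, adjusted p = 0.279). The low-abundance isoform Pfkfb2 had log2 fold changes of 0.97 ± 0.38 in CTR and -0.51 ± 0.43 in ELS, neither called.

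Ldha (ENSMUSG00000063229, chr7:46490899-46505061, plus strand) ran from 182 to 248 CPM in CTR-PBS (median 191) and from 254 to 554 CPM in CTR-LPS (median 404), with a narrow gap between the groups. The ELS-PBS mice did not exceed 203 CPM (median 184), and ELS-LPS replicates 1 to 5 had 496, 341, 394, 419.9 and 460.4 CPM. Ldha was thus 2.05-fold higher in CTR (log2 1.03 ± 0.13, adjusted p = 2.02e-08) and 2.29-fold higher in ELS (log2 1.19 ± 0.15, adjusted p = 1.25e-08). Its partner Ldhb was not called, with log2 fold changes of 0.02 ± 0.19 and 0.36 ± 0.21. The share of Ldha in the counts of the pair rose from 22.0% ± 2.5 (SD, n = 7) to 36.4% ± 8.7 (SD, n = 7) in CTR, a difference of 1.00 in the log2 ratio (exact permutation test, two-sided, p = 0.000583, adjusted p = 0.00357 over 49 ratio tests). In ELS the share was 21.2% ± 3.2 (SD, n = 6) with PBS and 33.7% ± 8.8 (SD, n = 5) with LPS, and the difference of 0.89 missed the threshold (exact permutation test, p = 0.0152, adjusted p = 0.0675).

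**Figure D1:**
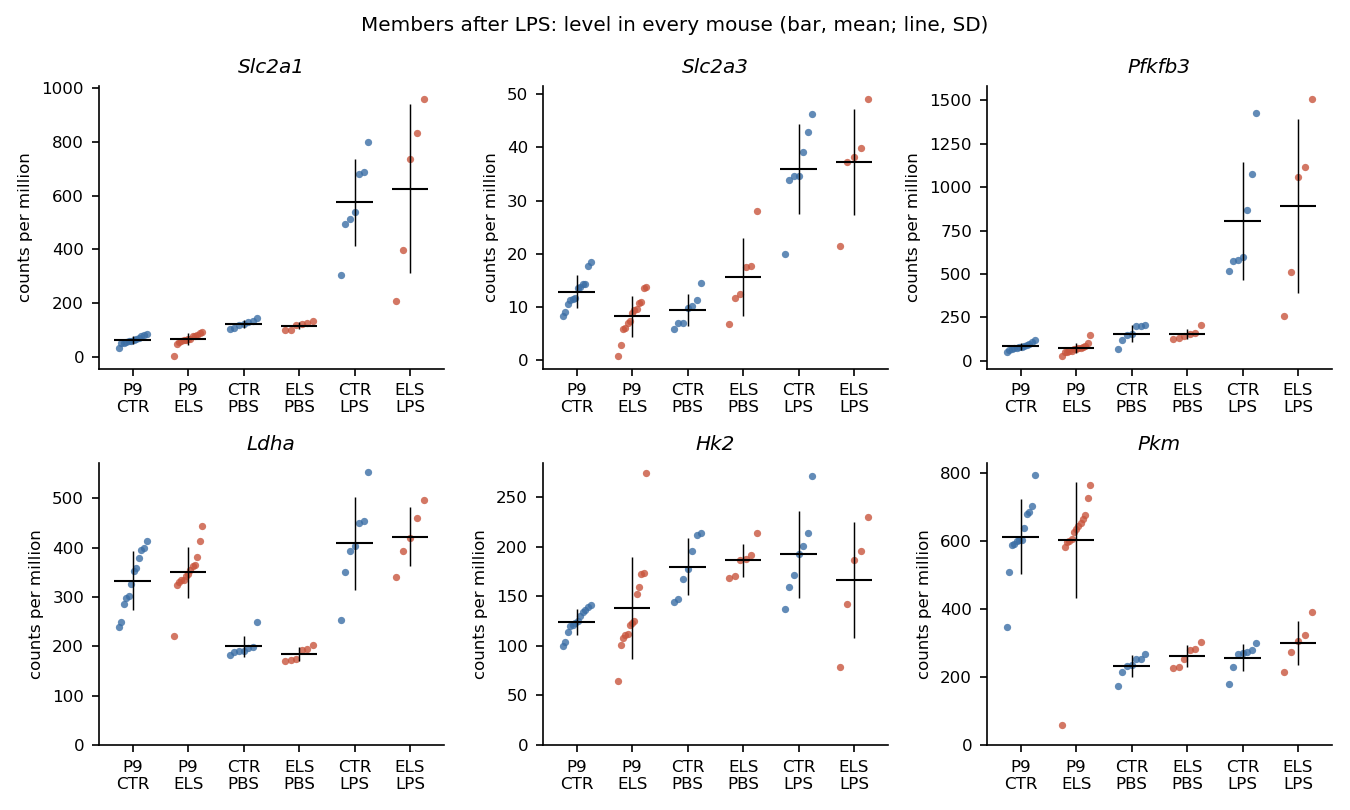
CPM (y axis, linear, labelled in full) of 6 members in every mouse of the 6 groups (x axis), with points sorted by level within a group, the bar at the mean and the line spanning 1 SD either way. Slc2a1 and Pfkfb3 of all LPS-injected mice lie above those of the PBS-injected mice of their condition, while Hk2 and Pkm overlap between PBS and LPS.

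Several members were high or low in the same LPS-injected mice. In ELS-LPS, replicate 3 had the lowest Slc2a1, Slc2a3, Pfkfb3 and Hk2, while replicate 5 had the highest Slc2a1, Pfkfb3 and Hk2. In CTR-LPS, replicate 4 had the highest Slc2a1, Pfkfb3, Ldha and Hk2, and replicate 3 had the lowest Slc2a1, Ldha and Hk2 but the highest Slc2a3. Hk2, the inducible hexokinase, nevertheless had group medians of 178 and 193 CPM in CTR-PBS and CTR-LPS, and of 187 CPM in both ELS groups. Its log2 fold changes of 0.10 ± 0.19 and -0.16 ± 0.21 were not called.

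Hif1a, the oxygen-regulated factor that drives many glycolytic genes, was at a median of 171 CPM in CTR-PBS and 210 CPM in CTR-LPS, with a log2 fold change of 0.39 ± 0.17 (adjusted p = 0.11). In ELS the medians were 186 and 196 CPM, and the log2 fold change was 0.14 ± 0.19 (adjusted p = 0.707). The 6 enzymes from Tpi1 to Pkm had log2 fold changes between -0.18 and 0.14 in CTR and between 0.01 and 0.31 in ELS. Transaldolase (Taldo1), which belongs to the sugar-exchange branch of the pentose phosphate pathway, was the fifth call in ELS. It ran from 146 to 168 CPM in ELS-PBS and was 179, 189, 316, 169.9 and 174 CPM in ELS-LPS replicates 1 to 5, a log2 fold change of 0.37 ± 0.12 (adjusted p = 0.0337). Without ELS-LPS replicate 3 it was 0.16, with an adjusted p of 0.404, and the call was also lost on leaving out ELS-PBS replicate 2 (0.34, adjusted p = 0.0735), 5 (0.36, adjusted p = 0.053) or 6 (0.36, adjusted p = 0.0581). The log2 fold change in CTR was 0.05 ± 0.11, and the other 3 pentose phosphate genes were not called.

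Without the 3 mice under 16000 genes, 7 members were called in CTR and 8 in ELS, where 19.8% and 21.2% of all genes were called. None of the 3 was an adult ELS mouse, so in ELS the same mice were compared, with a spread estimated over fewer mice. The added calls were lower after LPS: Pfkfb4 (log2 -0.70 in CTR and -0.61 in ELS), the pyruvate dehydrogenase kinase Pdk2 (-0.71 and -0.74), Pfkl in CTR (-0.40) and Pdk1 in ELS (-0.65). With these mice included, Pdk2 had a median of 28.0 CPM in CTR-PBS, 18.6 in CTR-LPS, 34.1 in ELS-PBS and 21.4 in ELS-LPS, and its groups did not overlap in ELS. Pfkfb4 and Pdk2 in both conditions, Pfkl in CTR and Pdk1 in ELS were also called as lower with every mouse kept and the groups compared alone. In that fit Slc2a5 in CTR (-0.25) was called as lower too.

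No member was called in the test of whether the LPS response differed between ELS and CTR. The difference was 0.21 for Slc2a1 (95% interval -0.69 to 1.101), -0.69 for Slc2a3 (-1.60 to 0.22), 0.18 for Pfkfb3 (-0.65 to 1.00) and 0.16 for Ldha (-0.23 to 0.55), all on the log2 scale, with adjusted p values of 0.91 or higher. A total of 2 members had an unadjusted p under 0.05 in this test, Pfkfb2 and Pdk1, at adjusted p values of 0.635 and 0.691, beside 5.87% of all genes. None of the 16696 genes was called.

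**Figure D2:**
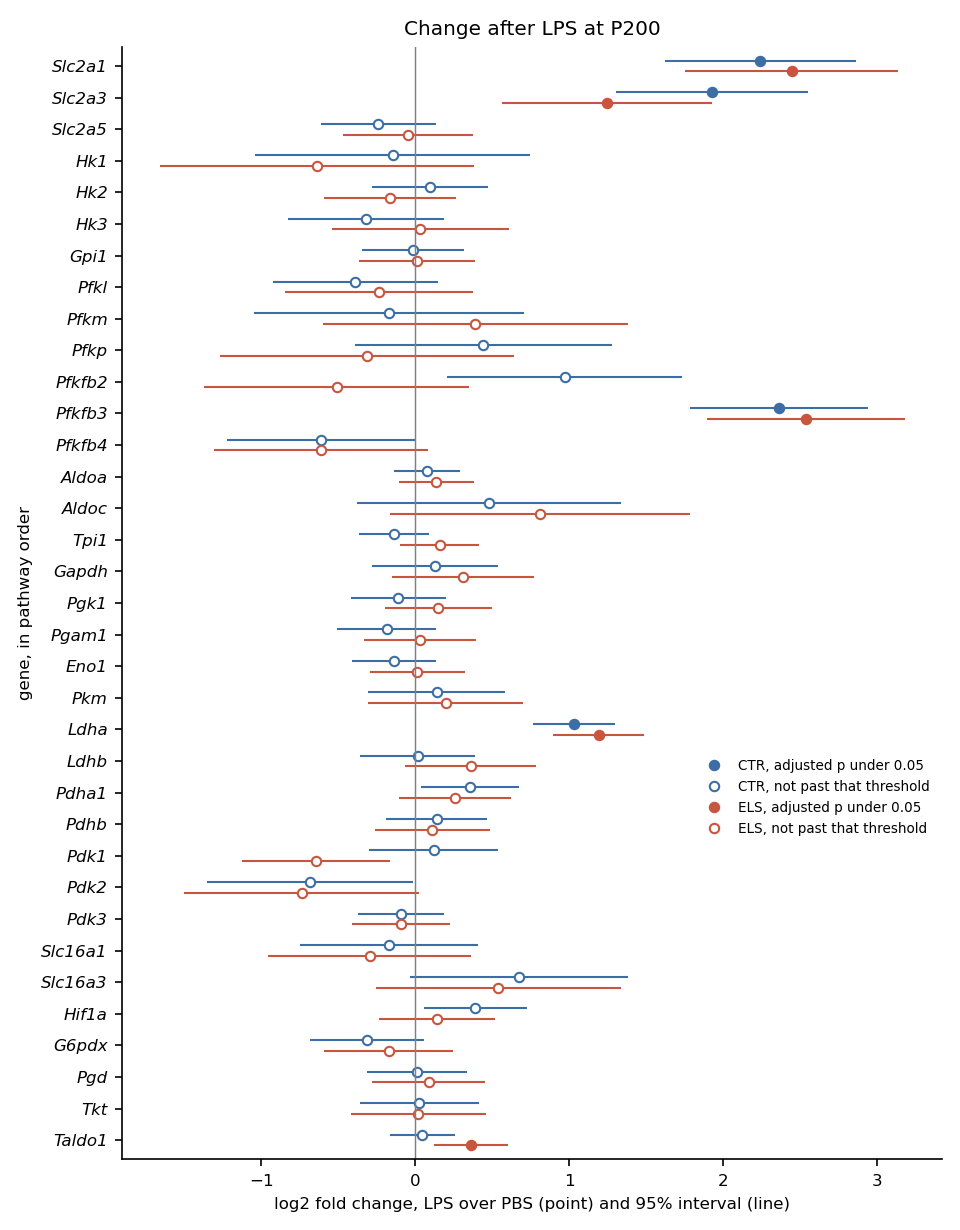
Log2 fold change of LPS over PBS at P200 (x axis) for the 35 tested members in pathway order (y axis), in CTR (blue) and ELS (red), with 95% intervals as lines and filled points for adjusted p under 0.05. Slc2a1, Slc2a3, Pfkfb3 and Ldha stand to the right in both conditions, and most other intervals cross 0.

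Promoter sequence was looked at for the members that rose in both conditions. The RefSeq promoter table (GRCm38.p6) held 52 windows for 35 of the 36 members, all but Slc2a3, and the 250 bases before each start site were searched on either strand for the hypoxia response core ACGTG or GCGTG, for the E-box CACGTG, which holds the core ACGTG, and for an NF-kB motif of GGG, any 5 bases and CC. The windows nearest to the canonical GENCODE start are shown for Slc2a1 (chr4:118965692-118965941, plus strand), Pfkfb3 (chr2:11506902-11507151, minus strand) and Ldha (chr7:46494978-46495227, plus strand), placed on GRCm39 by an exact match, with motif matches in capitals and the start site following the last base.
Slc2a1: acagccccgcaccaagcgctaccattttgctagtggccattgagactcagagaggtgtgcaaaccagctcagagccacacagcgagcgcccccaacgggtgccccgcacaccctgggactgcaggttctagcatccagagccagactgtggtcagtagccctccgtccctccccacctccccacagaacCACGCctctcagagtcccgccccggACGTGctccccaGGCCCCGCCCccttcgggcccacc
Pfkfb3: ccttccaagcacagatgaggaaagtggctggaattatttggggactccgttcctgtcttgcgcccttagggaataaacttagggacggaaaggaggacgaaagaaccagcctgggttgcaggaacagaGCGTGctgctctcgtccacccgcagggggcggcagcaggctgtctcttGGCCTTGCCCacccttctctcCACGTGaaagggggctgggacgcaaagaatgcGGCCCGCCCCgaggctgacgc
Ldha: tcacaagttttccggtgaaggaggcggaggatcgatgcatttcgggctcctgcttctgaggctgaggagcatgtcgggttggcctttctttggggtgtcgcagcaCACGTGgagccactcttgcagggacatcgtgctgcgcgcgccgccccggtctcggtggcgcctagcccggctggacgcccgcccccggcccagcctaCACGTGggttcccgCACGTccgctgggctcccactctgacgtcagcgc

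Each of the 3 windows held the hypoxia core. The Slc2a1 and Pfkfb3 windows also held NF-kB matches and the Pfkfb3 and Ldha windows the E-box. The core was in 42 of the members' 52 windows (80.8%), compared with 7700 of the 14420 windows of tested genes and 12679 of all 32851 windows (38.6%). The E-box was in 13.5%, 8.09% and 6.02%, and the NF-kB motif in 65.4%, 59.0% and 45.8% of the same 3 sets. The members' windows had a median GC content of 60.4%, against 59.2% and 52.4%. The core was also in windows of members that were not called after LPS, such as Hk2, Gapdh, Pgk1 and Hif1a itself.

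Of 78 other genes of glucose, pyruvate, lactate, glycogen and pentose phosphate metabolism and of the hypoxia axis, 63 were tested. After LPS 5 were higher and 5 lower in CTR, where 14.9% of all genes were called. In ELS 1 was higher and 1 lower, where 12.3% of all genes were called. The lysosomal hexose carrier Slc2a6 rose in both, from 0 to 3.11 CPM in CTR-PBS to 3.93 to 14.6 CPM in CTR-LPS (log2 2.71 ± 0.65, adjusted p = 0.00191) and from 0 to 3.09 CPM in ELS-PBS to 4.09 to 18.12 CPM in ELS-LPS (log2 3.05 ± 0.72, adjusted p = 0.00204). Vhl, part of the ligase that marks hypoxia factors for degradation, fell in both, from a median of 189 to 85.7 CPM in CTR (log2 -1.05 ± 0.21) and from 189 to 96.9 CPM in ELS (log2 -1.07 ± 0.25). In CTR alone the low-abundance genes Hif3a (log2 5.22 ± 1.14) and Ddit4 (1.81 ± 0.54) were also called as higher, and Ankrd37 (-1.64 ± 0.47) and Pdpr (-0.97 ± 0.32) as lower. Whether these responses differ between the conditions was tested across all genes, with no call.

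Markers of cell types were compared as well. Of the 12 microglial markers 3 were lower after LPS in each condition and 1 was higher in ELS. Of the 8 monocyte and neutrophil markers 3 passed the filter and none of these was called in either condition. The summed level of all 8 was 0.9 to 9.0 CPM in CTR-PBS and 2.0 to 8.4 CPM in CTR-LPS. In ELS it was 3.5 to 11.0 CPM with PBS and 1.6 to 9.7 CPM with LPS. Ly6g and Retnlg were at 0 in every adult group. S100a9 was at 0 with PBS and at means of 0.11 (CTR) and 0.44 CPM (ELS) with LPS. Mean S100a8 went from 0.03 to 0.17 CPM in CTR and from 0 to 0.54 CPM in ELS. Mean Plac8 went from 0.68 to 0.79 and from 0.45 to 1.48 CPM, and mean Ccr2 from 5.44 to 3.41 and from 6.51 to 2.44 CPM. The 8 endothelial markers, of a cell type rich in Slc2a1, summed to 39.3 to 71.0 CPM in CTR-PBS and 60.9 to 93.5 CPM in CTR-LPS, with 2 called as higher. In ELS the sum was 30.3 to 73.4 CPM with PBS and 45.0 to 99.6 CPM with LPS, with none called. Pecam1 made up most of this sum, with means of 47.6 CPM in CTR-PBS, 48.2 in CTR-LPS, 51.7 in ELS-PBS and 44.9 in ELS-LPS. The mean of Kdr went from 4.98 to 24.3 CPM in CTR and from 7.74 to 21.2 CPM in ELS, while Flt1 stayed at means of 0.34 CPM or less. Cldn5, Slco1c1, Ly6c1 and Abcb1a were at 0 in every ELS-LPS mouse, and at means of 0.0067 CPM or less in ELS-PBS. Nearly all of the summed level of the 8 astrocyte markers was Slc1a3, at 296 to 503 CPM in CTR-PBS and 477 to 609 CPM in CTR-LPS (log2 0.63 ± 0.16, adjusted p = 0.00491), and at 313 to 451 CPM in ELS-PBS and 415 to 580.4 CPM in ELS-LPS (log2 0.41 ± 0.18, adjusted p = 0.146). No other astrocyte marker was called in CTR, and in ELS the low-level markers Gfap (log2 3.92 ± 0.86) and Gja1 (4.47 ± 0.99) were called as higher. Of the 5 red blood cell markers 3 were called as higher in CTR, where the median sum was 0.38 CPM with PBS and 0.36 CPM with LPS and the highest 4.7 and 29.6 CPM. The part of these cells in the LPS results was not tested.

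Between P9 and the PBS-injected adults, most members changed. In CTR 25 of 35 were called, 8 higher and 17 lower at P200, 8 of them DEGs. In ELS 24 were called, 10 higher and 14 lower, 10 of them DEGs. The called members are 71.4% in CTR, where 44.1% of all genes were called, and 68.6% in ELS, where 42.2% were. Higher calls took up 17.4% and lower calls 26.6% of all genes in CTR. In ELS 2863 of the 16696 genes were called as higher, and lower calls took up 25%. The same direction was called in both conditions for 21 members, 7 higher and 14 lower, and the log2 fold changes of 30 of 35 members had the same sign. The median member changed by -0.41 in CTR and -0.30 in ELS, against -0.09 and -0.01 over all genes. DEGs made up 26.4% of all genes in CTR and 26.2% in ELS. Adults lay wholly above P9 for 5 members in CTR and 4 in ELS, beside 6.56% and 4.6% of all genes, and wholly below for 10 and 6, beside 10.5% and 7.03%. Without the 3 mice under 16000 genes, 28 members were called in CTR and 30 in ELS, beside 49.9% and 48.2% of all genes.

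Of the 3 sugar transporters among the members, Slc2a5 and Slc2a1 were higher in adults in both conditions. Slc2a5 (ENSMUSG00000028976, chr4:150196268-150228931, plus strand) ran from 421 to 744 CPM in P9-CTR (median 682) and from 2082 to 2334 CPM in CTR-PBS (median 2202), a 3.37-fold difference (log2 1.75 ± 0.16, adjusted p = 5.61e-13). In ELS it ran from 111 to 816 CPM at P9 (median 671) and from 2015 to 2328 CPM with PBS (median 2272), a 3.53-fold difference (log2 1.82 ± 0.16, adjusted p = 2.9e-13). The ages did not overlap in either condition. Slc2a1 was 1.96-fold higher in CTR (log2 0.97 ± 0.26, adjusted p = 0.00181) and 1.80-fold higher in ELS (0.85 ± 0.27, adjusted p = 0.00834), again without overlap. Fitted on the ELS groups compared alone, the Slc2a1 call was lost at an adjusted p of 0.0538. Slc2a3 had a log2 fold change of -0.46 ± 0.27 in CTR, which was not called, and rose by 0.92 ± 0.27 in ELS (adjusted p = 0.00483). Without ELS-PBS replicate 2, the highest at 28.0 CPM, the ELS value was 0.67 with an adjusted p of 0.0525. The difference between the conditions, 1.37 (95% interval 0.60 to 2.15), had an adjusted p of 0.258. The log2 ratio of Slc2a3 to Slc2a1 differed by -1.48 with age in CTR (exact permutation test, adjusted p = 0.000243), where the unadjusted p is the smallest that 7 and 12 mice allow, and by -0.07 in ELS (exact permutation test, adjusted p = 0.952). In P9-ELS the ratio ran from -6.41 to 1.12 (replicate 5), with a median of -2.79, against a median of -2.97 in ELS-PBS.

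At the phosphofructokinase step the isozymes went in opposite directions. Pfkl (chr10:77818084-77845922) was higher at P200, at 66.4 to 109 CPM in P9-CTR mice and 139 to 173 CPM in CTR-PBS (log2 0.93 ± 0.23, adjusted p = 0.00104), and by 1.02 ± 0.24 in ELS (adjusted p = 0.000463). Pfkp, the platelet-type isozyme, ran from 4.16 to 13.6 CPM in P9-CTR (median 8.69) and from 0 to 4.30 CPM in CTR-PBS (median 1.56), lower by 1.99 ± 0.40 on the log2 scale (adjusted p = 5.63e-05). In ELS it ran from 2.15 to 10.8 CPM at P9 (median 5.91) and 0.81 to 3.80 CPM with PBS (median 2.21), a log2 fold change of -1.47 ± 0.41 (adjusted p = 0.00296), which was lost when counts were summed per nest (-1.33, adjusted p = 0.061). The muscle-type Pfkm was lower in CTR (-1.34 ± 0.41, adjusted p = 0.00621) and missed the threshold in ELS (-0.82 ± 0.42, adjusted p = 0.112). The log2 ratio of Pfkp to Pfkl differed by -3.50 in CTR (exact permutation test, adjusted p = 0.000243) and by -2.82 in ELS (exact permutation test, adjusted p = 0.000903). P9-ELS replicate 5 had the highest ratio of its group at 0.48, beside a group median of -3.79.

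Aldoc (ENSMUSG00000017390, chr11:78213619-78218889, plus strand) showed the largest age difference of the members. It ran from 22.8 to 66.1 CPM in P9-CTR (median 50.0) and from 0 to 7.64 CPM in CTR-PBS (median 3.06). In ELS it ran from 18.5 to 61.6 CPM at P9 (median 32.8) and from 0.27 to 4.80 CPM with PBS (median 2.51). The ages did not overlap in either condition, and log2 values changed by -3.79 ± 0.44 (adjusted p = 7.18e-10) in CTR mice and by -3.86 ± 0.48 (adjusted p = 2.84e-09) in ELS mice. Among the astrocyte markers, 7 of 8 were also lower in adults in each condition, and their part in the Aldoc difference was not tested. The main aldolase Aldoa was not called, with medians of 406 and 382 CPM in CTR and 405 and 412 CPM in ELS and log2 fold changes of -0.02 ± 0.10 in both. Phosphoglucose isomerase (Gpi1) was lower in both conditions (-0.89 and -0.78), and Hk2 was higher (0.53 and 0.43). The Hk2 call in ELS was lost in 7 of 19 fits with a single mouse left out, with adjusted p values up to 0.0756 (without ELS-PBS replicate 5). It was also lost with counts summed per nest (adjusted p = 0.22) and with the groups compared alone (adjusted p = 0.123). Hk1 and Hk3 were not called, although the log2 ratio of Hk3 to Hk1 differed by -1.57 in ELS (exact permutation test, adjusted p = 0.0031, and 0.0648 with 1 mean per nest) and by -0.29 in CTR (exact permutation test, adjusted p = 0.899). In CTR the median ratios were 3.19 at P9 and 2.00 with PBS. CTR-PBS replicate 1, with Hk1 at 1.02 CPM, had a ratio of 7.12, which raised the mean and widened the spread of its group. Whether the shift of this ratio differed between the conditions was not tested. The log2 ratio of Aldoc to Aldoa differed by -4.49 in CTR and -4.13 in ELS (exact permutation test, adjusted p = 0.000243 and 0.000361).

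**Figure D3:**
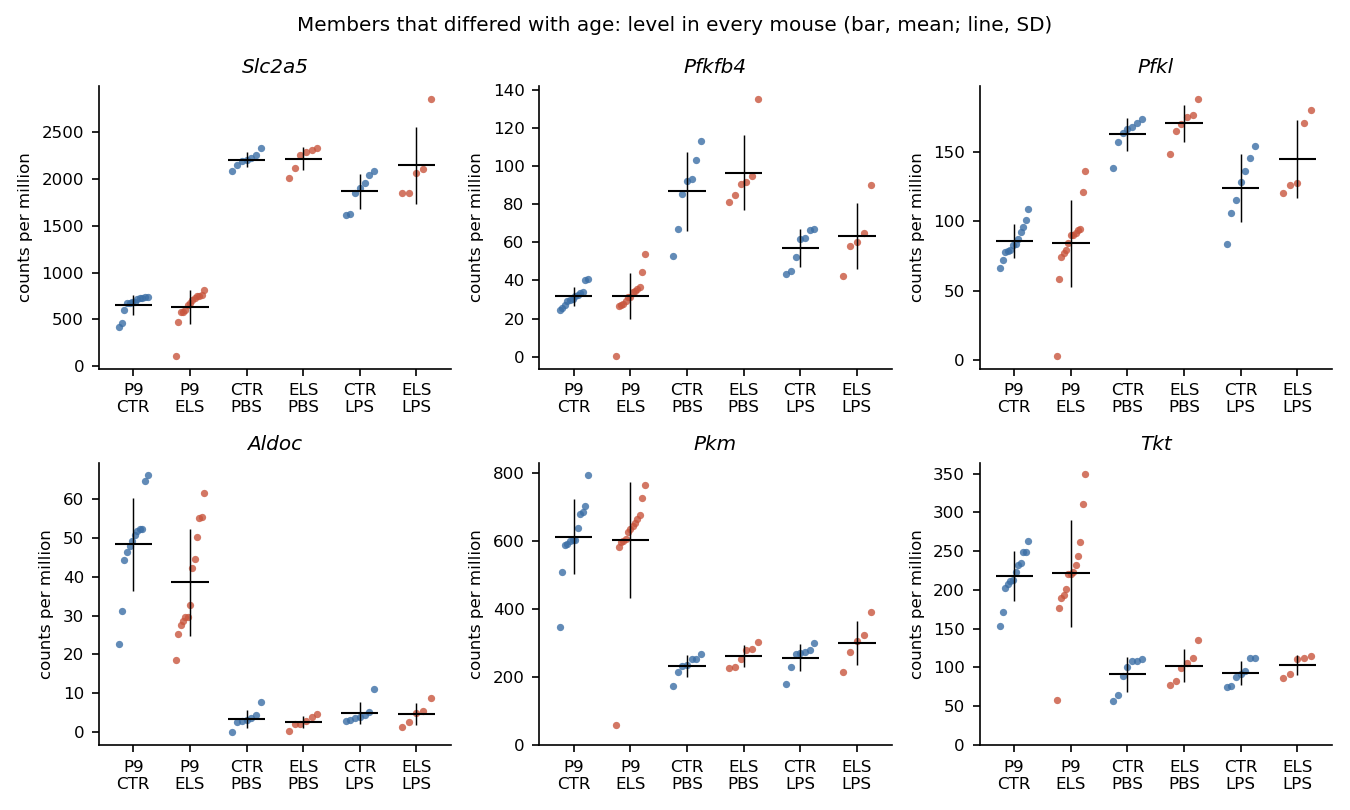
CPM (y axis, linear, labelled in full) of 6 members that differed with age in every mouse of the 6 groups (x axis), with points sorted by level within a group, the bar at the mean and the line spanning 1 SD either way. Slc2a5, Pfkfb4 and Pfkl are higher in the PBS-injected adults than at P9 and Aldoc, Pkm and Tkt lower, and a single P9-ELS mouse (replicate 5) sits near the floor for Slc2a5, Pfkfb4, Pfkl and Pkm.

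Of the regulators, Pfkfb3 and Pfkfb4 were higher at P200 in both conditions. Pfkfb4 (ENSMUSG00000025648, chr9:108820832-108862847, plus strand) ran from 24.6 to 40.7 CPM in P9-CTR and from 53.09 to 113 CPM in CTR-PBS, 2.74-fold higher (log2 1.46 ± 0.26, adjusted p = 1.08e-05). In ELS it ran from 0.51 to 54.0 CPM at P9 and from 81.4 to 135 CPM with PBS, 3.04-fold higher (log2 1.60 ± 0.27, adjusted p = 2.74e-06). Pfkfb3 had P9 medians of 79.9 and 65.9 CPM against adult PBS medians of 152 and 147 CPM, and was higher by 0.92 ± 0.24 (adjusted p = 0.00153) in the CTR mice and 1.07 ± 0.24 (adjusted p = 0.000364) in the ELS mice. Pfkfb2 was called in ELS alone (0.89 ± 0.34, adjusted p = 0.0282), and without ELS-PBS replicate 6 its log2 fold change was 0.52 with an adjusted p of 0.245. The difference between the conditions had a 95% interval of 0.33 to 2.27 (adjusted p = 0.333).

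Every member from triose phosphate isomerase to pyruvate kinase was lower at P200 in both conditions. Pkm (ENSMUSG00000032294, chr9:59563364-59586663, plus strand), the pyruvate kinase of most tissues, ran from 347 to 795 CPM in P9-CTR (median 604) and from 173 to 269 CPM in CTR-PBS (median 237), a log2 fold change of -1.39 ± 0.21 (adjusted p = 2.78e-07). In ELS it ran from 60.2 to 766 CPM at P9 (median 635) and from 226 to 303 CPM with PBS (median 266), a change of -1.20 ± 0.22 (adjusted p = 1.11e-05), where the only overlap came from P9-ELS replicate 5 at 60.2 CPM. Tpi1 (ENSMUSG00000023456, chr6:124787549-124791273, minus strand) ran from 122 to 202 CPM in P9-CTR and 57.8 to 75.4 CPM in CTR-PBS (-1.20 ± 0.11, adjusted p = 1.86e-13), and from 126 to 201 CPM in P9-ELS and 50.2 to 73.0 CPM in ELS-PBS (-1.36 ± 0.11, adjusted p = 2.04e-14). Pgk1 fell by 0.93 and 1.32, Gapdh by 0.75 and 0.97, Pgam1 by 0.49 and 0.71 and Eno1 by 0.41 and 0.39 on the log2 scale in CTR and ELS. Summed per nest, Eno1 was no longer called in either condition (adjusted p = 0.0534 and 0.154).

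At the fate of pyruvate, Ldha was lower in adults (-0.74 ± 0.12, adjusted p = 1.19e-06, and -0.92 ± 0.13, adjusted p = 3.14e-08). Ldhb was higher in CTR (0.48 ± 0.16, adjusted p = 0.0147) and not called in ELS (0.25 ± 0.17). The share of Ldha in the pair was 39.4% ± 3.3 (SD, n = 12) in P9-CTR and 22.0% in CTR-PBS, without overlap, and 39.1% ± 8.7 (SD, n = 13) in P9-ELS and 21.2% in ELS-PBS. The log2 ratio differed by -1.21 in CTR (exact permutation test, adjusted p = 0.000243) and by -1.23 in ELS (exact permutation test, adjusted p = 0.00421). The pyruvate dehydrogenase subunit Pdha1 was lower in both (-0.98 and -0.91), while Pdhb was not called. Of the kinases that switch this enzyme off, Pdk3 was lower in both (-0.95 and -0.86) and Pdk2 higher in both (0.71 and 0.88). The Pdk2 call in CTR was lost in 6 of 19 fits with a single mouse left out, with adjusted p values up to 0.0825 (without CTR-PBS replicate 3), and with limma and nest as a random effect (adjusted p = 0.14), and the ELS call was lost with the groups compared alone (adjusted p = 0.117). Pdk1 was lower in CTR alone (-0.60 ± 0.19, adjusted p = 0.00898), with 0.26 ± 0.19 in ELS and a difference between the conditions of 0.86 (95% interval 0.32 to 1.40, adjusted p = 0.267). The lactate exporter Slc16a3 (MCT4) was called as higher in ELS (0.92 ± 0.32, adjusted p = 0.0154), a call lost without ELS-PBS replicate 2 (0.78, adjusted p = 0.0587), and Slc16a1 (MCT1) was not called. The log2 ratio of Slc16a3 to Slc16a1 differed by 0.89 in CTR (exact permutation test, adjusted p = 0.00545, and 0.0648 with 1 mean per nest) and by 1.06 in ELS (exact permutation test, adjusted p = 0.331). In ELS the medians were -1.15 at P9 and 0.16 with PBS. P9-ELS replicate 6, the shallowest library at 5152838 counts, had a ratio of 4.15 and widened the spread of its group.

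**Figure D4:**
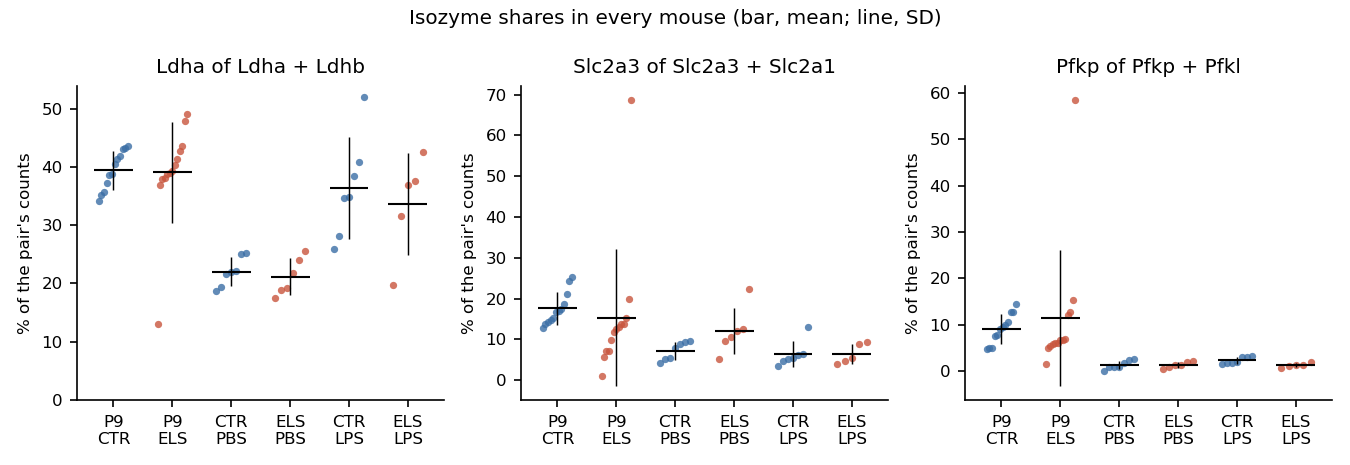
Share of the named isozyme in the counts of its pair (y axis, % of both genes' counts) in every mouse of the 6 groups (x axis), for the lactate dehydrogenases, the glucose transporters and the phosphofructokinases, with the bar at the mean and the line spanning 1 SD either way. The Ldha share is 39.4% in P9-CTR, 22.0% in CTR-PBS and 36.4% in CTR-LPS. P9-ELS replicate 5 stands apart as the lowest mouse of its group for the Ldha share. It is the highest for the Slc2a3 share (68.6%) and the Pfkp share (58.4%).

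In the pentose phosphate pathway, transketolase (Tkt, chr14:30270156-30299612), which exchanges carbon units between sugar phosphates, fell from a median of 218 to 100 CPM in CTR (log2 -1.26 ± 0.18, adjusted p = 9.77e-08) and to 102 CPM in ELS-PBS (-1.12 ± 0.19, adjusted p = 2.71e-06). Its partner Taldo1 fell by 0.60 and 0.70. Of the NADPH-forming enzymes, Pgd was lower in CTR (-0.37 ± 0.15, adjusted p = 0.0357) and not called in ELS (-0.30 ± 0.15), and that call was lost in 10 of 19 fits with a single mouse left out. G6pdx, which commits glucose phosphate to the pathway, was not called (-0.38 ± 0.17 and -0.41 ± 0.17). Hif1a did not pass the test either (-0.11 ± 0.15 and 0.14 ± 0.15).

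**Figure D5:**
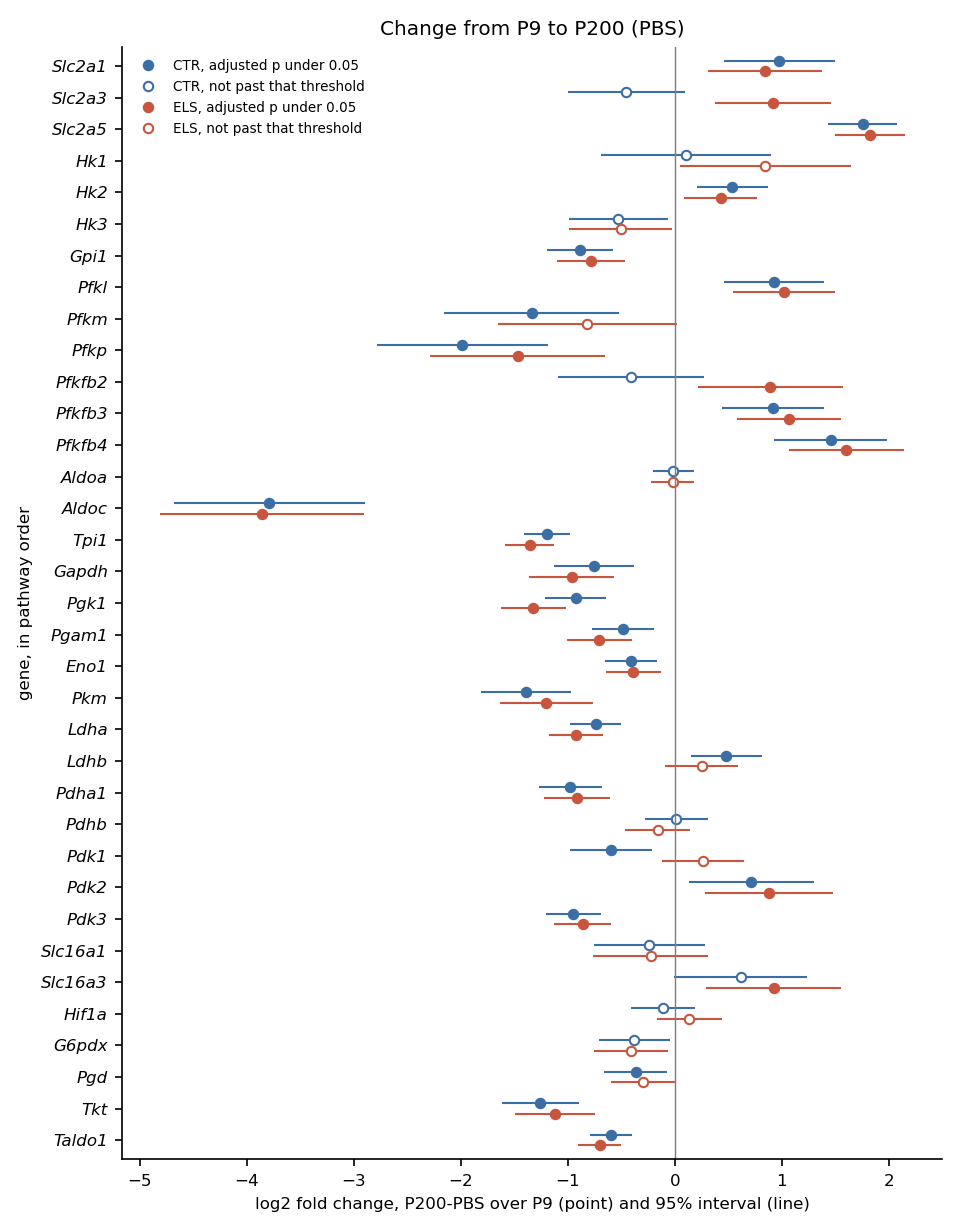
Log2 fold change from P9 to the PBS-injected adults (x axis) for the 35 tested members in pathway order (y axis), in CTR (blue) and ELS (red), with 95% intervals as lines and filled points for adjusted p under 0.05. The transporters Slc2a1 and Slc2a5 and the regulators Pfkfb3 and Pfkfb4 lie to the right of 0, and every gene from Tpi1 to Ldha lies to the left.

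Among the 63 tested genes of the wider list, 7 were higher and 17 lower at P200 in CTR, where 44.1% of all genes were called. In ELS 8 were higher and 10 lower, where 42.2% of all genes were called. Eno3, the muscle enolase, was higher in both (1.99 ± 0.21 and 2.27 ± 0.22), as was P4ha1, a prolyl hydroxylase for collagen, whose median went from 236 to 787 CPM in CTR and from 233 to 757 CPM in ELS (1.82 ± 0.11 and 1.68 ± 0.11). Vhl was higher by 1.14 and 1.19. The lowest fold changes were those of Arnt2 (-5.06 in CTR and -3.42 in ELS) and Epas1 (-4.31 and -4.56), both at medians of 3.2 CPM or less at P9 and 0 in the adult PBS groups.

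Markers of dividing cells and of other cell types differed with age too. The 6 markers of dividing cells summed at P9 to medians of 939.7 (CTR) and 786 CPM (ELS), against 10.0 and 11.9 CPM in CTR-PBS and ELS-PBS, and all 6 were lower in both conditions. The 6 border macrophage markers summed to 723 and 731 CPM at P9, and 8.2 and 5.7 CPM in adults. Nearly all of the P9 sum was Mrc1, at a mean of 711 CPM in both P9 groups. The other border macrophage markers had P9 means of 5.9 CPM or less. The 8 neuronal markers summed to 161 and 118 CPM at P9, and 7.2 and 7.3 CPM in adults. Of the 8 astrocyte markers 7 were lower in adults in both conditions, while Slc1a3 was higher (log2 1.57 ± 0.14 in CTR and 1.91 ± 0.14 in ELS) and made up nearly all of the adult sum of 299 to 503 CPM in CTR-PBS, against 150 to 342 CPM in P9-CTR. The part of these cells in the age differences was not tested.

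No member was called between ELS and CTR at either age. At P9 0 of 35 members were called, as were 0% of all genes, with 2 at an unadjusted p under 0.05 (Slc2a3 at -0.63 and Pgk1 at 0.25 on the log2 scale, adjusted p of 0.875 or higher), beside 5.47% of all genes. Log2 differences ran from -0.65 to 0.28, and the 95% intervals of 33 members lay within ±1. In the PBS-injected adults 0 members were called, beside 0.168% of all genes, with 3 at an unadjusted p under 0.05, where 9.71% of all genes were. Of these, Pdk1, a kinase that holds back pyruvate dehydrogenase, ran from 29.6 to 96.4 CPM in CTR-PBS (median 62.5) and from 93.0 to 149.8 CPM in ELS-PBS (median 111), overlapping through CTR-PBS replicate 5, with a log2 difference of 0.90 ± 0.22 (adjusted p = 0.0571). It passed the threshold with DESeq2 (adjusted p = 0.0159), with edgeR's likelihood-ratio test (0.012), without the 3 mice under 16000 genes (0.78, adjusted p = 0.0304), without CTR-PBS replicate 5 (1.03, adjusted p = 0.0203) and without ELS-PBS replicate 5 (0.95, adjusted p = 0.0448). The other 2 were Pfkfb2 (1.09 ± 0.39, adjusted p = 0.253) and Slc2a3 (0.74 ± 0.31, adjusted p = 0.381), and 27 of 35 intervals lay within ±1. Of the 63 tested genes of the wider list, 1 of the hypoxia axis was called as higher in ELS-PBS, beside the 0.168% of all genes. None of the wider list was called between ELS and CTR at P9 or after LPS.

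In the LPS-injected adults 0 members were called between ELS and CTR, as were 0% of all genes, with 1 at an unadjusted p under 0.05 (Taldo1, 0.29), beside 4.77% of all genes. The log2 differences of the LPS-responsive members were 0.12 for Slc2a1 (95% interval -0.52 to 0.77), 0.05 for Slc2a3 (-0.61 to 0.71), 0.14 for Pfkfb3 (-0.46 to 0.74) and 0.05 for Ldha (-0.24 to 0.33). The intervals of 30 members lay within ±1. None of the 7 isozyme ratios was called for ELS at either age or injection after adjustment over the 49 ratio tests. No member was called in the test of whether the age change differed between ELS and CTR, with 4 at an unadjusted p under 0.05 (Slc2a3, Pdk1, Pfkfb2 and Pgk1) beside 10.3% of all genes, and a smallest adjusted p of 0.258, where 0.0299% of all genes were called. Of the 63 tested genes of the wider list, 1 of the hypoxia axis was called in that test.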

How the data were processed

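Per the labels and the methods of the study, mRNA of sorted microglia was poly-A selected and sequenced, reads were trimmed with cutadapt 2.10, aligned with STAR to GRCm39 and counted per gene with HTSeq 0.11.0, after demultiplexing with bcl2fastq 2.20. The annotation release and the strand setting are not given in the sources used here. The authors deposited raw counts per gene, 1 table of 53700 rows per mouse. Without a stated strand setting, reads of a gene and of an antisense neighbour cannot be told apart, and reads in named copies of members made up at most 1.18% of a member's reads (Pgam1).

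The 16696 genes that reached 1 CPM in over 2 mice were tested with edgeR 4.0.16 in R 4.3.3: TMM normalization, a model with 6 group means over all 50 mice, glmQLFit and glmQLFTest, and Benjamini-Hochberg adjustment. The scripts were tested on simulated data. CPM values use TMM library sizes, and values per kb divide by the Ensembl canonical transcript of GENCODE M39. Isozyme log2 ratios were taken on raw counts with a pseudocount of 1 count. They were compared by two-sided permutation tests, exact where a group held fewer than 10 mice and with 100000 resamples otherwise. Depth was 5152838 to 42231258 counts per mouse.

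For each comparison full values are given for the 3 called members with the largest increase, the 3 with the largest decrease and the isozyme pairs, and for at most 3 other pathway genes in each direction. Further members named for a call that was gained or lost were chosen after their values were seen. The members and the gene lists were chosen with earlier results of these data known. Mouse labels of the form nest.mouse were read as giving the nest. Alternatives were a likelihood-ratio test, DESeq2 1.42.0, DESeq2 size factors, other filters, the groups compared alone, sums per nest, limma 3.58.1 with nest as a random effect, a replicate block, and the omission of the mice under 16000 genes or of each mouse.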

Additional observations from a re-analysis of the deposited data

Results flagged for a closer look

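In 21 of 140 combinations of a member with an adult group, the highest or lowest mouse was set apart from the rest of its group by Dixon's test at the 95% level, where chance alone flags about 1 in 20. ELS-LPS replicate 3 made up 6 of them, as the highest of the 5 mice for Tpi1 (90.4 CPM), Gapdh (369.6 CPM), Eno1 (893 CPM), Ldhb (1611 CPM), Pdhb (152 CPM) and Taldo1 (316 CPM). CTR-PBS replicate 1, which had 12854 genes above 0, made up 5, as the lowest for Hk1 (1.02 CPM), Pfkp (0 CPM), Aldoc (0 CPM), Eno1 (436 CPM) and Pdhb (63.1 CPM). ELS-PBS replicate 6 stood apart for Pfkfb2 (11.23 CPM), Aldoc (0.271 CPM) and Pdhb (115 CPM), and ELS-PBS replicate 1 for Pfkfb4 (135 CPM). Among CTR-PBS mice, replicate 3 was the highest for Ldha (248 CPM) and Taldo1 (181 CPM) and replicate 4 for Pgk1 (65.3 CPM). Among CTR-LPS mice, replicate 3 was the highest for Pdk2 (33.1 CPM) and the lowest for Hif1a (139 CPM), and replicate 1 was the lowest for Slc2a3 (19.9 CPM). The P9 groups, of 12 and 13 mice, were not tested in this way.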

How the results depend on the processing

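No reported result changed sign under the alternatives run. The number of members called between ELS and CTR in PBS-injected adults went from 0 to 1 with the likelihood-ratio test, with DESeq2 and without the mice under 16000 genes, and ran from 0 to 1 with each mouse left out, the DEGs among them likewise from 0 to 1. The number called after LPS in CTR went from 4 to 8 with the groups compared alone and to 7 without the mice under 16000 genes. In ELS it went from 5 to 7 with the groups compared alone and to 8 without those mice, none of them an adult ELS mouse. For age in ELS it went from 24 to 20 with counts summed per nest and to 30 without the mice under 16000 genes. With the groups compared alone it went to 18, 4 higher and 14 lower. The higher calls of Slc2a1, Slc2a3, Hk2, Pfkfb2, Pdk2 and Slc16a3 were lost in that fit. With each mouse left out, the calls ran from 23 to 27 for age in CTR, 22 to 28 for age in ELS, 4 to 5 for LPS in CTR and 4 to 5 for LPS in ELS, and were 0 throughout for ELS at P9, for ELS in LPS-injected adults and for both tests of a difference between conditions. Between 10 and 12 isozyme ratio tests passed, compared with 10 over all mice. With 1 mean per nest, the age differences of Hk3 to Hk1 in ELS and of Slc16a3 to Slc16a1 in CTR no longer passed (adjusted p = 0.0648 for both). Fewer mice in a fit change its power, and the causes of the other shifts were not tested.

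Mice of the PBS and LPS groups share nest numbers. Their deviations from the group means correlated by -0.04 to 0.10 over 15 same-nest pairs, and by -0.09 to 0.12 over 64 other pairs. Such correlations cannot show whether these mice were littermates, and the main test held no term for the nest. With the nest number as a replicate block, fitted on the P200 mice, 8 members were called after LPS in CTR, 4 higher and 4 lower, and 7 in ELS, 4 higher and 3 lower, where the call of Taldo1 was lost (adjusted p = 0.0678). The same fit without the block, added after seeing the data, called 7 in CTR and 6 in ELS.

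Genes at a few CPM, such as Pfkp, Pfkm, Aldoc and Pfkfb2, and the variable Hk1 had the widest intervals after LPS in ELS.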
